A study of Mus musculus with 60 samples.

Results

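Hotspot loci are stretches of the mouse genome from which 4 or more different circular RNAs (circRNAs) were listed. A circRNA is a closed loop that forms when a downstream splice donor is joined to an upstream splice acceptor, a reaction known as back-splicing, and it is recognised by reads across that junction. One gene can give several circRNAs when an acceptor is joined to alternative donors or a donor to alternative acceptors, and pairing of intron sequences and RNA-binding proteins are known to bias which junction forms. CircRNAs lack free ends, resist exonucleases, and are known to be plentiful and varied in brain.

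The members were found by position alone. The union of the 5 organ tables held 2799 circRNAs, and circRNAs whose intervals overlapped were joined into 2126 loci. Of these, 56 autosomal loci held 4 or more circRNAs and gave the 294 members, 10.5% of all circRNAs. The densest locus, on chromosome 8, was set aside, as was a locus of 4 circRNAs on chromosome X. Just outside the limit stood 87 loci of 3 circRNAs, and just inside it 29 loci of 4. A further 14 loci held 5, 11 held 6 to 9, and 2 held 12. The loci are numbered below from 1 to 56 by falling number of circRNAs, with ties ordered by summed abundance.

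Whole brain, heart, kidney, liver and spleen were taken from 3 Ftsj1_DF mice, deficient in the tRNA methyltransferase gene Ftsj1, and from 3 WT mice. All were males of 4 months, without special treatment, and came from a set of 4 brothers and a set of 2. After depletion of ribosomal RNA, a poly(A) tail was added and linear RNA was degraded with RNase R. Each of the 30 libraries was sequenced in 2 batches. The labels name no allele of Ftsj1, and the genotype labels were not checked against the level of Ftsj1, which was not analysed here.

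Each organ has a deposited table of the authors' own genotype comparison, with 1 abundance per circRNA, called baseMean in the header and read here as the mean normalised count over both genotypes. Values per mouse were not analysed here, so abundance carries no error between mice, depth is unknown, and the standard error (SE) of the deposited log2 fold change is the error available. Each table was normalised and filtered for low expression by itself. Levels are therefore compared within an organ, and an organ that does not list a circRNA may still express it below the limit. The tables hold no gene names or strand, so a locus is given by its GRCm39 position, may span more than 1 gene, and its starts (lower coordinate) and ends (higher coordinate) are not assigned to acceptors or donors. For the same reason the organ labels were not checked against marker genes.

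Brain listed most of the hotspot circRNAs. It held 211 of the 294, or 11.4% of its table, followed by 114 in kidney (11.4%), 97 in liver (10.8%), 73 in heart (10.99%) and 24 in spleen (7.79%). Together they made up 16.1% of the summed baseMean of the authors' deposited brain table, 11.7% in kidney, 11.4% in heart, 9.52% in liver and 10.1% in spleen. The median member in the authors' deposited brain table had a baseMean of 4.77, against 3.75 for the other brain circRNAs, and in spleen 6.73 against 3.02. In liver it was the other way, with 8.05 for the members and 8.82 for the rest in the authors' deposited table. Of the 294 members, 183 (62.2%) stood in 1 table, a share close to the 65.4% of the other circRNAs, and 15 stood in all 5.

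Members covered long stretches of genome. Their median span, introns included, was 21152 bases, against 5052 for all other circRNAs, and ran from 159 to 175001. Long circRNAs overlap others more readily, so the rule itself favours long spans. The loci spanned 1484 to 258755 bases, with a median of 63263, and lay on 17 autosomes. The brain table was the longest, with 1856 of the 2799 circRNAs. It listed 52 of the 56 loci, 10 of them alone. Among these 10 were Locus 5 (chr6:36976977-37074561) with 9 circRNAs, Locus 8 (chr15:39398234-39479906) with 8 and Locus 16 (chr10:89878408-89999166) with 5. Kidney alone listed Locus 26 (chr1:20417435-20451818), and 13 loci were listed in all 5 organs. The same shares over all 2126 loci were not worked out, so these counts are not set apart from the length of the tables.

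**Figure D1:**
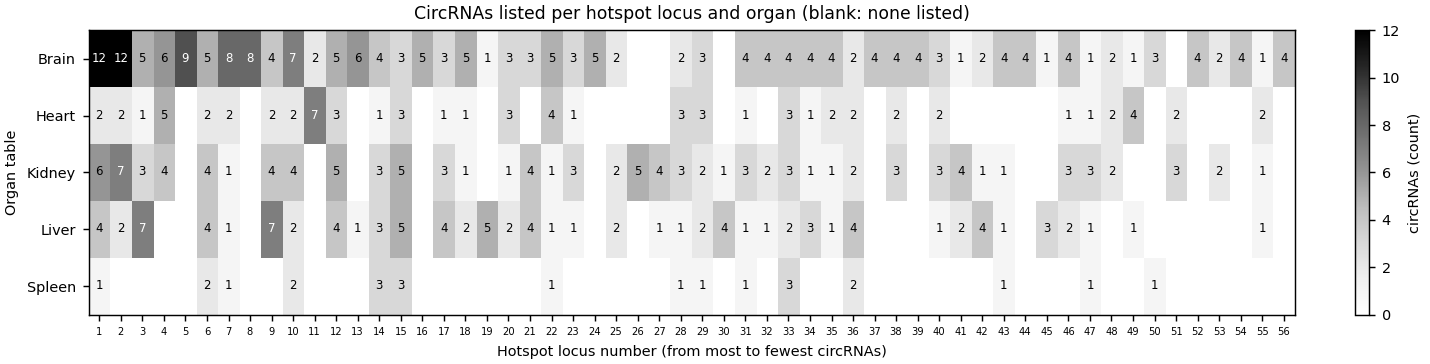
Number of circRNAs listed for each of the 56 hotspot loci (columns, by locus number) in each organ table (rows), with darker cells for more circRNAs and blank cells where none was listed. Brain fills 52 columns, and spleen, with 24 members, has at most 3 circRNAs in any locus.

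The isoforms of a hotspot locus were built from a small set of starts and ends. Of the 294 members, 285 (96.9%) shared their start or their end, to the base, with another member of the locus. A start was shared by 186, an end by 205 and both by 106, while 9 shared neither. The 294 circRNAs used 184 starts and 169 ends. If every start of a locus were joined to every end beyond it, 482 circRNAs would result, and 61.0% of these were listed. Within single tables, 94.3% of the brain members shared a boundary with another circRNA of brain, against 33.4% of the whole brain table. The same shares were 79.8% and 27.6% in kidney, 67.1% and 23.2% in heart, 70.1% and 25.0% in liver, and 45.8% and 16.2% in spleen. Members overlap each other by the rule, which favours sharing, so these shares are a description.

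Some boundaries acted as hubs, used by 3 or more members. There were 57 of them, 25 starts and 32 ends. The most used was the end of Locus 8 at 39479906 on chromosome 15, which was joined to 7 starts between 39398234 and 39449105. Some of these starts nearly coincide, since 39418461 and 39418464 lie 3 bases apart, as do 39449102 and 39449105. In Locus 1 (chr2:139725692-139899419) the end at 139899419 was joined to 6 starts and the end at 139793499 to 4. Locus 3 (chr6:99237306-99437411) had a hub on the other side, a start at 99412177 joined to 5 ends. Locus 7 (chr10:13879942-13961826) and Locus 9 (chr6:31070298-31174786) each had an end joined to 5 starts. In 4 loci a single start or a single end served every circRNA, the most compact being Locus 33 (chr19:6391933-6393416), where 1 start was joined to 4 ends.

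Other loci mixed starts and ends freely. In Locus 2 (chr4:150490653-150619402), with 12 circRNAs, the starts at 150523800 and 150553152 were each joined to the same 4 ends, 150561925, 150584508, 150594495 and 150619402. Locus 11 (chr9:77072047-77124330) had 3 starts and 3 ends, and 7 of the 9 possible circRNAs were listed. Every possible circRNA was listed in 7 loci, but 4 of these were the loci with a single start or a single end, where this follows by construction. Among the others was Locus 28 (chr4:117421818-117472438), with 2 starts and 2 ends. Locus 1 and Locus 3 each had 25 possible circRNAs, of which 12 and 9 were listed. Over the 731 pairs of members within a locus, 154 shared a start, 194 shared an end, 178 overlapped in a staggered way, 48 were nested with no shared boundary and 157 did not overlap.

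**Figure D2:**
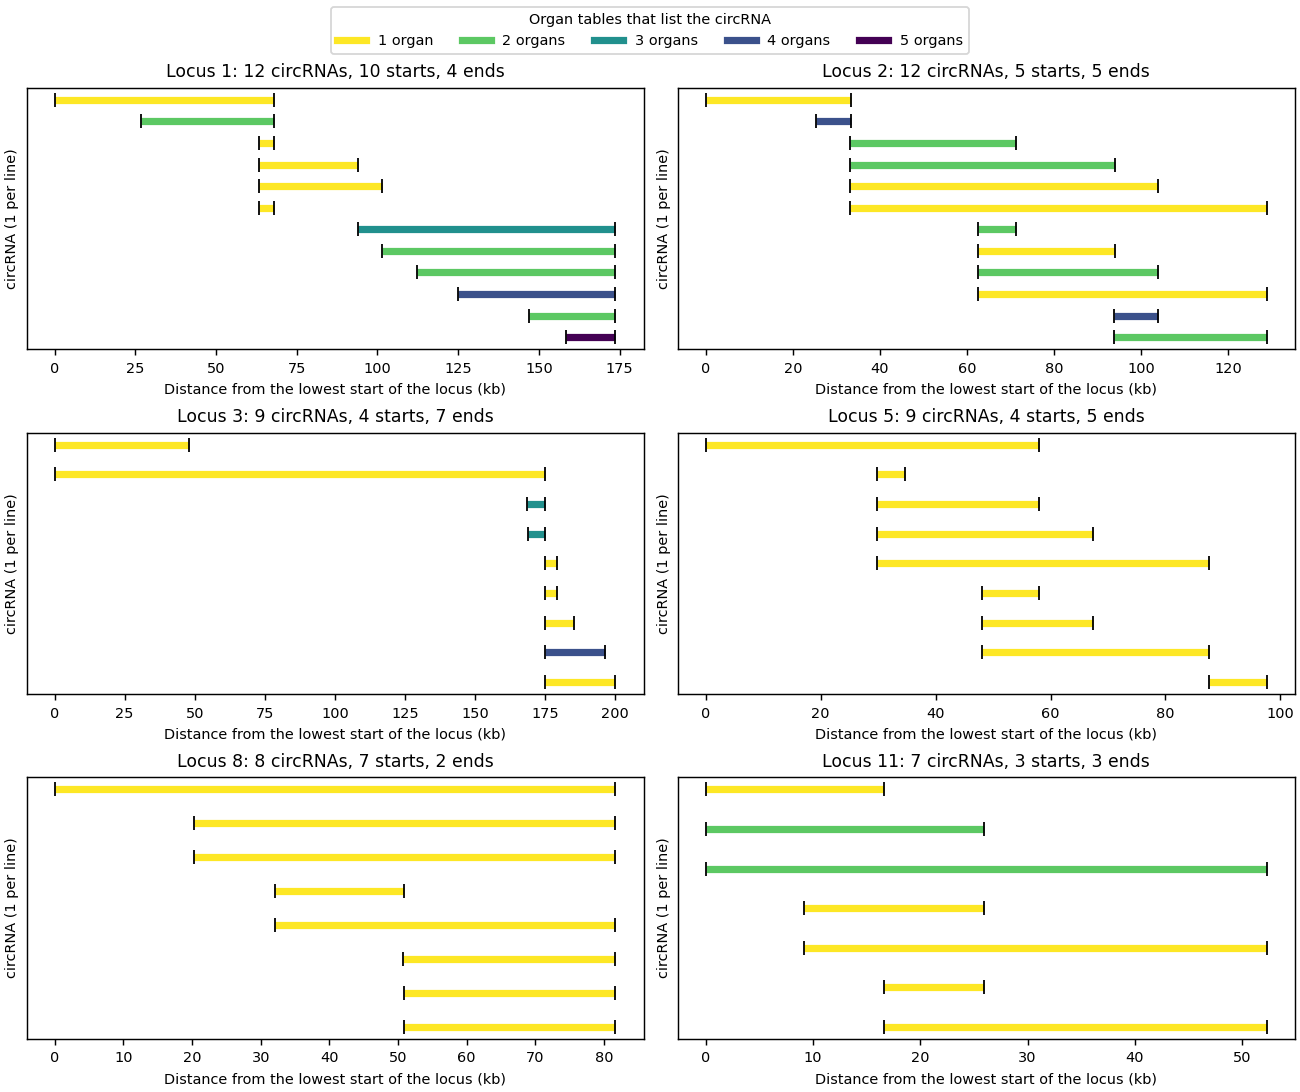
CircRNAs of 6 hotspot loci, each drawn as a bar from its start to its end, with black ticks at both and the distance from the lowest start of the locus in kb on the horizontal axis. The colour gives the number of organ tables that list the circRNA. Locus 8 shows 7 bars that end together, Locus 3 shows 5 that start together, and Locus 2 and Locus 11 show several starts crossed with several ends.

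A short stretch often closed one circRNA and opened another. In 29 of the 56 hotspot loci, a start lay up to 300 bases before an end that belonged to other circRNAs of the locus. These 36 stretches were 45 to 297 bases long, with a median of 107, and bounded 102 of the 294 members. Stretches of Locus 8 from 39448986, 39449102 and 39449105 shared the end at 39449158 and were counted separately. A stretch that was itself listed as a circRNA was left out. Among loci of 3 circRNAs, 18 of 87 (20.7%) had such a stretch, against 51.8% of the hotspot loci, which hold more pairs of boundaries. The clearest case was the stretch of 130 bases at chr6:99412177-99412306 in Locus 3, where 5 circRNAs started and 3 ended. In Locus 7 the stretch chr10:13942327-13942428, of 102 bases, held the start of 2 circRNAs and the end of 5. Locus 6 (chr13:45851297-46110051) held 2 such stretches of 129 bases each.

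A few boundaries differed by only a handful of bases. Within 20 bases of each other lay 8 pairs of starts or of ends in 7 hotspot loci, and 4 of these pairs were exactly 3 bases apart. Over all loci of the series there were 21 such pairs, of which 16 were 3 bases apart. In brain, members of such a pair could differ widely in level. In Locus 7 the circRNA from 13879945 to 13942428 had a baseMean of 140.2 in the authors' deposited brain table, and the one that started 3 bases earlier had 25.8. In Locus 6 the circRNA from 45948985 to 46110051 had 125.4 in the authors' deposited brain table, against 7.52 for the one that ended 3 bases earlier. In Locus 1, by contrast, starts at 139789077 and 139789090 with the same end had close levels in the authors' deposited brain table, 24.5 and 27.9.

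One isoform usually led its locus. Where an organ listed 2 or more circRNAs of a locus, the dominant one, that with the highest baseMean, held a median of 55.6% of the summed baseMean of the locus in the authors' deposited brain table (46 loci). The median share was 61.4% in kidney (30), 64.8% in heart (23 loci), 55.9% in liver (24) and 57.6% in spleen (6) in the authors' deposited tables. It held more than 50% in 29 brain loci, 21 in kidney, 19 in heart, 18 in liver and 5 in spleen. Where an organ listed only 2 circRNAs of a locus, the leader holds more than 50% by definition. The least possible share falls as more circRNAs are listed, so the shares and counts describe the lists and do not rank the organs. The lowest share was in Locus 1 in brain, where 12 circRNAs were listed and the leader held 26.5%. The highest was in kidney at Locus 32 (chr12:3667606-3736862), where 1 of 2 circRNAs held 96.6%.

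**Figure D3:**
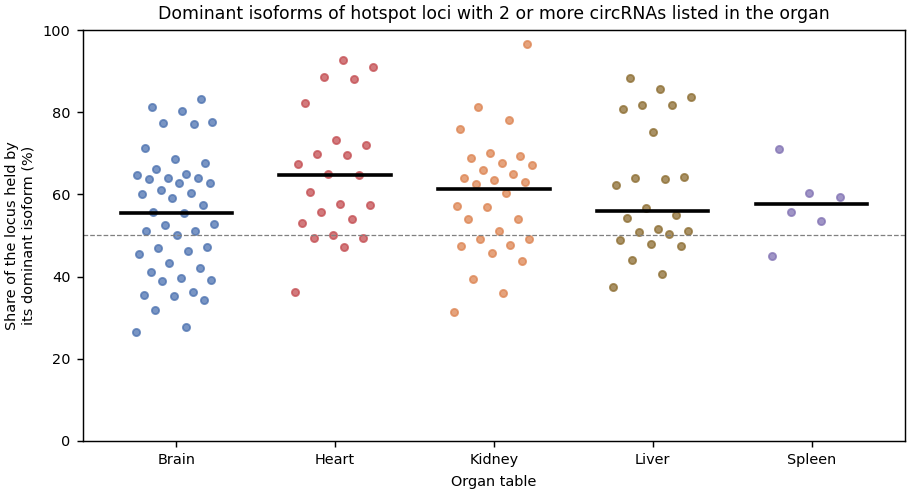
Share of the summed baseMean of a locus held by its dominant isoform (vertical axis, percent), with 1 point per hotspot locus in which the organ listed 2 or more circRNAs and a black line at the median. The medians lie between 55.6% in brain and 64.8% in heart, and single loci reach from 26.5% to 96.6%.

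Dominant circRNAs were shorter than the others in most organs. In brain their median span was 16548 bases, against 27327 for the other isoforms of the same loci. The pair of medians was 14804 and 23346 in kidney, 13833 and 18025 in heart, and 11115 and 20415 in liver. Spleen, with 6 loci, had 6444 for the dominant circRNAs and 3319 for the others. The dominant circRNA was shorter than the median of the others in 28 of 46 brain loci, 22 of 30 in kidney, 14 of 23 in heart, 15 of 24 in liver and 3 of 6 in spleen. It was the shortest of all in 15 brain loci and the longest in 9. These counts were 12 and 7 in kidney, 13 and 7 in heart, 12 and 7 in liver, and 2 and 3 in spleen. The share expected without any preference for length was not worked out.

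Several loci kept one dominant circRNA in every organ, counting organs that listed a single circRNA of the locus. Of the 45 loci listed in 2 or more organs, 13 had a single dominant, and of the 13 loci listed in all 5 organs, 5 did. In Locus 1 this was the circRNA from 139884014 to 139899419, with a baseMean of 47.9 in brain, 38.9 in kidney, 21.1 in heart, 122.5 in liver and 19.9 in spleen in the authors' deposited tables. It held 26.5% of the locus in brain and 85.6% in liver, where 4 circRNAs were listed, and spleen listed no other. The dominant of Locus 7, from 13879945 to 13942428, ranked 7 in the whole brain table and 8 in the spleen table, with 140.2 and 31.8 in the authors' deposited tables. Brain listed all 8 circRNAs of that locus, heart 2, and the other organs the dominant one only.

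Locus 28 was led everywhere by the circRNA from 117439797 to 117450359, which was the only one listed in liver and spleen. Its baseMean was 40.4 in brain, 16.7 in kidney, 15.2 in heart, 10.7 in liver and 10.1 in spleen in the authors' deposited tables. In Locus 29 (chr5:146196315-146223049) the leader ran from 146196315 to 146208545, with shares between 67.1% in kidney and 81.9% in liver among organs with 2 or more circRNAs in the authors' deposited tables. The leader of Locus 31 (chr5:73668229-73692040), from 73668229 to 73692040, was the longest circRNA of its locus and held 71.3% in brain and 81.3% in kidney. Heart, liver and spleen listed no other circRNA of that locus. Locus 2 was listed in 4 organs and was led in each by the circRNA from 150584460 to 150594495. Its share was 27.8% in brain (12 circRNAs listed), 82.4% in heart (2), 47.3% in kidney (7) and 81.9% in liver (2) in the authors' deposited tables. These shares rest on unlike numbers of listed circRNAs. Locus 3 was likewise led in its 4 organs by 1 circRNA, from 99412177 to 99433541, with 9.65 in brain, 2.17 in heart, 2.71 in kidney and 42.0 in liver in the authors' deposited tables. Heart listed no other circRNA of Locus 3.

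In the other 32 loci listed in 2 or more organs, the dominant circRNA was not the same throughout, and 8 loci had 3 different dominants. Part of this reflects organs that listed a single isoform. When only organs in which the leader had at least 1.5 times the level of the next circRNA were compared, 29 loci had 2 or more such organs and 13 of these changed dominant. A stricter count used pairs of circRNAs of a locus that were both listed in 2 or more organs. Of 127 such pairs in the hotspot loci, 23 (18.1%), in 14 loci, reversed their order between organs by more than 1.5 times in each direction. In loci of 2 or 3 circRNAs the same happened in 9 of 87 pairs (10.3%). With no limit on the size of the reversal the counts were closer, 41 of 127 (32.3%) in the hotspot loci and 24 of 87 (27.6%) in loci of 2 or 3 circRNAs. Without values per mouse, none of these orders could be set against the spread between animals.

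Locus 9 showed one of the widest reversals. The circRNA from 31116664 to 31158084 led in kidney, with a baseMean of 25.3, and in liver, with 168.0, the highest of any hotspot circRNA in that organ, and had 3.45 in brain in the authors' deposited tables. The circRNA from 31143411 to 31158084, which shares its end, led in brain with 28.9 and had 6.14 in kidney and 53.0 in liver in the authors' deposited tables. The ratio of the first to the second was 0.119 in brain, 4.12 in kidney and 3.17 in liver. Heart did not list the second and was led by the circRNA from 31116664 to 31174786, with 1.83 against 1.34 for the first in the authors' deposited table.

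Locus 12 (chr9:32040866-32119561) split by organ in another way. The short circRNA from 32063218 to 32064420, of 1203 bases, had a baseMean of 16.1 in brain, 3.44 in kidney and 14.4 in liver in the authors' deposited tables. The circRNA from 32040866 to 32064420 with the same end had 2.85 in brain, 16.1 in kidney and 4.07 in liver in the authors' deposited tables. Their ratio, the longer to the shorter, was 0.177 in brain, 4.68 in kidney and 0.282 in liver. The circRNA from 32093138 to 32101357 led the locus in heart with 4.50, kidney with 40.9 and liver with 15.2 in the authors' deposited tables. The short one led in brain, where the circRNA from 32093138 to 32101357 had 14.4. The leads in brain and liver were small, at 1.12 and 1.05 times the next circRNA. A change of leader between brain and liver is therefore not clear.

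Locus 14 (chr19:4834752-4844037) was divided between circRNAs at its opposite sides, which do not overlap. The left one, from 4834752 to 4835595, had a baseMean of 37.5 in brain, 8.82 in kidney, 10.1 in heart, 103.7 in liver and 7.72 in spleen in the authors' deposited tables. The right one, from 4842426 to 4844037, had 47.8 in brain, 13.8 in kidney, 5.52 in liver and 2.55 in spleen in the authors' deposited tables, and heart did not list it. The ratio of left to right was therefore 0.785 in brain and 0.639 in kidney but 18.8 in liver and 3.02 in spleen.

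Locus 36 (chr12:86303642-86315835) and Locus 6 had a pair of circRNAs with a common end that were listed in all 5 organs and changed order. In Locus 36 the circRNA from 86303642 had 9.43 in brain, 4.90 in kidney, 5.17 in heart, 11.8 in liver and 4.55 in spleen in the authors' deposited tables. Its partner from 86307351 had 5.36 in brain, 10.3 in kidney, 9.50 in heart, 6.07 in liver and 6.63 in spleen in the authors' deposited tables. The longer circRNA thus led in brain and liver and the shorter one in heart, kidney and spleen. In Locus 6 the ratio of the longer, from 45948985, to the shorter, from 46005804, was 1.41 in brain and 1.53 in spleen, 0.850 in heart and 0.937 in kidney, and 0.401 in liver. The levels behind those ratios were 125.4 and 89.0 in brain and 26.7 and 17.5 in spleen in the authors' deposited tables.

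Locus 10 (chr1:138950843-139038223) had 3 dominants over the 5 organs. The circRNA from 138967738 to 138969781 led in brain with 58.8 and in liver with 22.6 in the authors' deposited tables. The circRNA from 138981084 to 138990709 led in heart with 11.8 and in spleen with 13.6 in the authors' deposited tables. In kidney the lead fell to the circRNA that joins the start of the one to the end of the other, from 138967738 to 138990709, with 15.5 in the authors' deposited table, and the circRNA that led in brain was not listed. The lead in spleen was small, at 1.15 times the next circRNA, which was the one that led in brain and liver.

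Locus 15 (chr6:134039027-134114380) also had 3 dominants. A circRNA of 159 bases, from 134043270 to 134043428 and the shortest member of all, led in liver with 54.3 and had 3.82 in brain and 1.38 in kidney in the authors' deposited tables. In brain, kidney and spleen the leader ran from 134039027 to 134043428 with 12.2, 7.61 and 8.01 in the authors' deposited tables, and in liver it followed closely with 53.0. Heart was led by the circRNA from 134092183 to 134114380, with 8.49 in the authors' deposited table, and brain did not list that one. The leader of brain had 7.03 in the authors' deposited heart table, so the heart lead was small, at 1.21 times. The lead in kidney was also small, at 1.11 times the next circRNA, so these changes of leader are not clear.

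Locus 46 (chr2:91635369-91655697) changed leader between brain and the other organs. Its circRNA from 91654805 to 91655697 led in brain with 8.81 and had 1.30 in kidney and 3.81 in liver in the authors' deposited tables. The circRNA from 91635369 to 91640554 led in heart with 2.24, kidney with 5.82 and liver with 6.85, and had 5.42 in brain in the authors' deposited tables. Heart listed no other circRNA of the locus. The leads in liver and brain were 1.80 and 1.63 times.

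**Figure D4:**
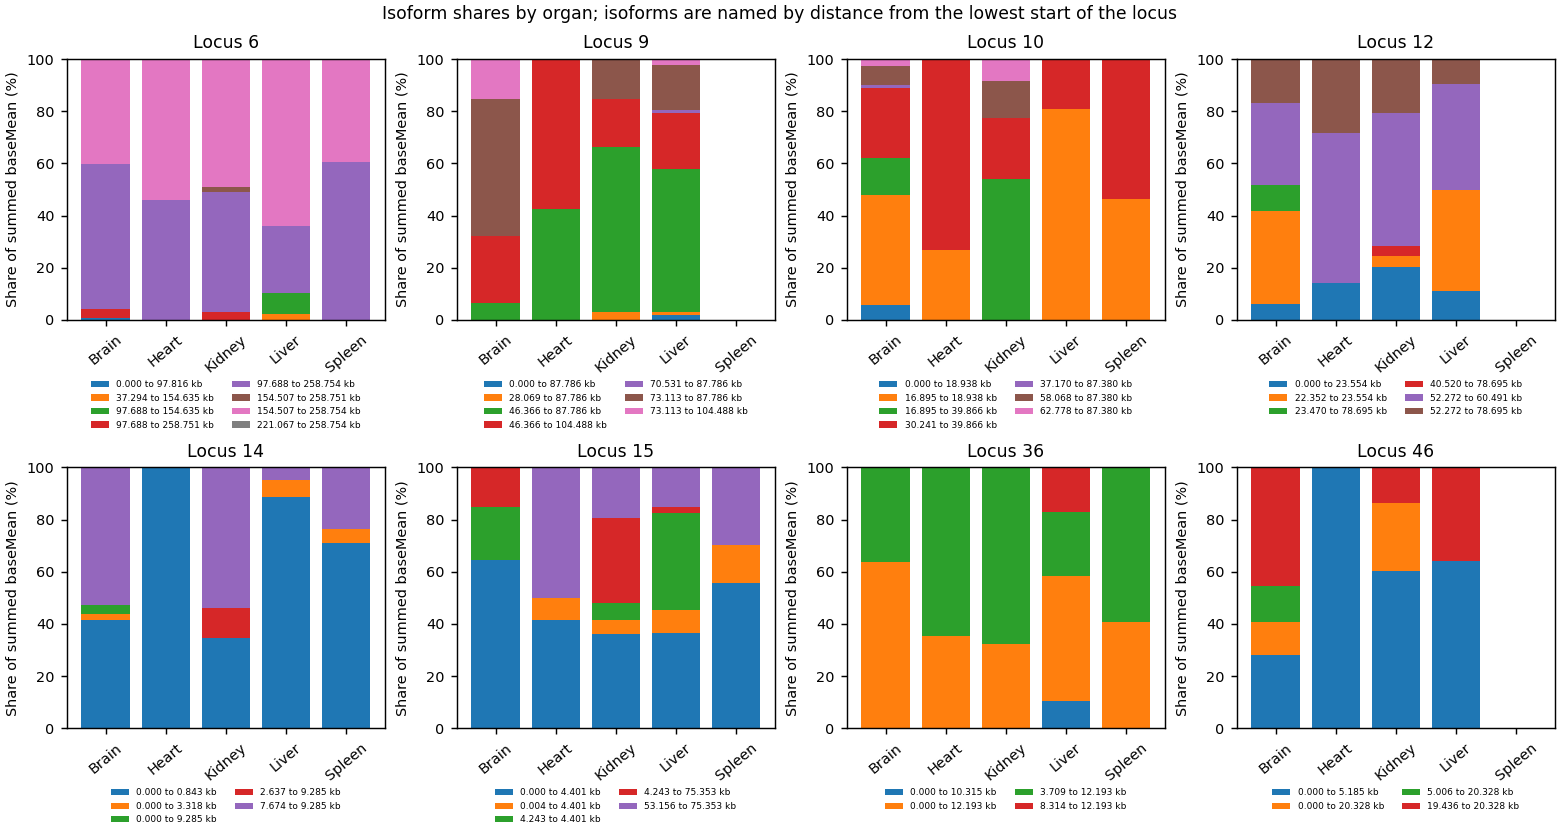
Share of each circRNA in the summed baseMean of its locus (vertical axis, percent) by organ, for 8 hotspot loci whose dominant circRNA differed between organs. Colours stand for circRNAs, named below each panel by the distance of their start and end from the lowest start of the locus in kb, and an empty column means that the organ listed none. In Locus 9 the leading circRNA of kidney (62.9%) and liver (55.0%) holds 6.3% in brain.

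Dominants also changed between organs that listed few isoforms. In Locus 20 (chr19:37021922-37065987) 3 circRNAs shared the start at 37021922. The one ending at 37045691 led in heart with 35.1 and was the only one in kidney, with 11.5, in the authors' deposited tables. The one ending at 37031774 led in liver with 9.22 in the authors' deposited table and had 1.10 in heart. Brain listed neither and was led by the circRNA from 37045573 to 37065987, with 12.02 in the authors' deposited table. In Locus 23 (chr7:51537660-51603049) the circRNA from 51537660 to 51547120 was the only one listed in liver, with 30.95, and came second in brain, with 4.71, behind the circRNA that runs over the whole locus, with 10.5, in the authors' deposited tables.

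Locus 34 (chr1:190603789-190631768) was led in brain by its longest circRNA, which held 61.2%, and in liver by the circRNA from 190617531 to 190631768, which held 50.9%, in the authors' deposited tables. Locus 40 (chr6:31395866-31436002) was led in brain, heart and kidney by the circRNA from 31395866 to 31410066, with 11.7, 9.18 and 11.9, while liver listed only the one from 31426431 to 31436002, with 15.7, in the authors' deposited tables. In Locus 17 (chr14:79219676-79275641) the circRNA from 79219676 to 79221742 held 75.3% in liver and 65.9% in kidney, and in brain 40.3%, behind one with 46.2%, in the authors' deposited tables.

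In 4 further loci listed in at least 4 organs the dominant circRNA also differed. Locus 22 (chr13:55182702-55217620) was led by the circRNA from 55203788 to 55217620 in every organ but brain, where it had 11.3 against 12.01 for the leader in the authors' deposited table. It was the only one listed in kidney, liver and spleen. Locus 33 was led by the circRNA of 755 bases except in spleen, where the circRNA of 1274 bases had 8.18 against 5.24 in the authors' deposited table. The leads of the circRNA of 755 bases were small in brain, kidney and liver, at 1.17, 1.03 and 1.02 times the next circRNA. In Locus 47 (chr9:79994712-80011046) no organ but kidney listed more than 1 circRNA, and in Locus 55 (chr11:4749861-4770493) every baseMean was between 0.913 and 4.24 in the authors' deposited tables.

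Brain and heart differed in Locus 11, which the other organs did not list. Heart listed all 7 circRNAs and was led by the one from 77081241 to 77124330, with 37.4, the highest of any hotspot circRNA in the authors' deposited heart table. Brain listed 2, led by the circRNA from 77072047 to 77098019 with 16.0, which had 22.3 in heart, in the authors' deposited tables. Brain did not list the heart leader. In Locus 4 (chr2:68093579-68243932) the circRNA from 68137385 to 68144947 led in brain with 18.6 and the one from 68221258 to 68240485 in kidney with 30.98 and heart with 3.90, in the authors' deposited tables. That second circRNA had 17.4 in brain, so the brain lead was small.

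Among brain-only loci, Locus 16 had the highest level. Its circRNA from 89905330 to 89913004 had a baseMean of 139.5, rank 8 in the brain table, and held 68.6% of the locus in the authors' deposited brain table. The circRNA from 89885678 with the same end followed with 47.7 in that authors' deposited table. In Locus 8 the circRNA from 39430339 to 39479906 held 66.2%, with 91.9, and the remaining 7 lay between 0.879 and 27.0 in the authors' deposited brain table. Locus 5 was led by the circRNA from 37006698 to 37034963 with 23.6, or 51.0%, in the authors' deposited brain table. Locus 30 (chr5:127721383-127741772) was listed in liver and kidney, and its circRNA from 127721383 to 127734202 led in liver with 68.2, or 62.2%, in the authors' deposited liver table.

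Where another organ also listed the locus, most circRNAs seen in a single organ used at least 1 boundary seen elsewhere. Of the 183 members listed in 1 organ, 56 were in loci with no other organ. For 19 of the rest both boundaries were used by other circRNAs of the locus in another organ, for 84 one boundary was, and for 24 neither was. In liver, 20 of 27 such members had 1 boundary listed elsewhere and 1 had both. In brain, 11 of 112 had both and 38 had one, while 51 lay in loci that no other organ listed. The rule of overlap favours such sharing, and the same shares outside the hotspot loci were not worked out.

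The genotype comparison asked which circRNAs differed between Ftsj1_DF and WT mice. The headers do not name the numerator genotype, so signs are given as deposited. No hotspot circRNA passed an adjusted p of 0.05 in the authors' DESeq2 test in any organ. Background shares of all tested circRNAs at that threshold were 0% in brain, heart, kidney and spleen and 0.113% in liver. At an unadjusted p below 0.05 the counts were 5 of 211 tested members in brain, where 2.05% of all tested circRNAs passed, and 1 of 73 in heart, where 2.86% did. They were 3 of 113 in kidney (1.82% of all), 12 of 95 in liver (9.06% of all) and 1 of 20 in spleen (2.05% of all). The share of members was thus 2.37% in brain, 2.65% in kidney, 1.37% in heart, 12.6% in liver and 5.00% in spleen. In brain 4 were negative, where 1.4% of all tested circRNAs were negative at that threshold, and 1 was positive (0.648% of all). The 1 of heart was positive (1.81% of all), as were all 3 of kidney (1.82% of all). All 12 of liver were negative (8.61% of all), as was the 1 of spleen (0.685% of all).

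Median log2 fold changes of the members followed those of the whole tables in sign. They were -0.31 for members and -0.14 for all circRNAs in brain, 0.18 and 0.20 in kidney, 0.15 and 0.12 in heart, -0.46 and -0.22 in liver, and -1.40 and -0.55 in spleen in the authors' deposited tables. The median SE of single members was 1.71 in brain, 1.56 in kidney, 1.48 in heart, 2.03 in liver and 1.74 in spleen in the authors' deposited tables. This is the error of a single circRNA and not of the medians. Members of an organ share the same 6 mice, so no test over members was made.

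Most of the liver values with a small p had a fold change whose size followed the mean. For 22 of the 97 liver members (22.7%, against 135 of all 900 circRNAs of the liver table), the size of the log2 fold change was more than 2.5 above the log2 of baseMean, in a narrow band apart from the other circRNAs. Of the 12 liver members at an unadjusted p below 0.05, 11 lay in this band, as did 3 members in brain, 1 in heart and 3 in kidney in all. When nearly all counts of a feature lie in 1 group, its fitted fold change depends on its mean and does not measure how strongly it differs. Whether that holds here was not tested, since counts per mouse were not analysed.

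The smallest adjusted p of any member was that of Locus 35 (chr5:66520061-66557624) in liver, and it was the only one below 0.1, where 1.93% of all tested liver circRNAs stood. Its circRNA from 66520061 to 66522463 had a baseMean of 11.6 and, on the log2 scale, a fold change of -6.55 with an SE of 1.80 in the authors' deposited liver table. Its adjusted p by DESeq2, from the authors' deposited liver table, was 0.061, and it lay in the band. The same circRNA led its locus in all 4 organs that listed it, and was the only one listed in kidney and liver. The authors' deposited tables gave it log2 fold changes of 0.28 (SE 0.85) in kidney, -0.59 (SE 1.40) in brain and -0.13 (SE 0.68) in heart. Its baseMean there was 19.7 in kidney, 17.9 in brain and 10.5 in heart. Liver differed from kidney by 6.83 (SE 2.00), kidney minus liver, which did not pass (adjusted p = 0.415 over 3341 differences between organs, Benjamini-Hochberg). The other liver circRNA named here was the only 1 of the 12 outside the band, the dominant of Locus 28, with a log2 fold change of -3.94 and a 95% interval of -7.14 to -0.74 in the authors' deposited liver table (DESeq2 adjusted p = 0.241).

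In kidney the circRNA at the right of Locus 14, from 4842426 to 4844037, had a log2 fold change of 2.88 with an SE of 1.16 in the authors' deposited kidney table (DESeq2 adjusted p = 0.999). It was the dominant circRNA there, and in brain, where it also led, its value was -0.97 with an SE of 1.65 in the authors' deposited brain table. The only positive brain member below an unadjusted p of 0.05 was the dominant of Locus 15, at 3.53 with an SE of 1.54 in the authors' deposited brain table. Among the negative brain members the circRNA of Locus 4 from 68189158 to 68240485 had -5.39 with an SE of 1.95 in the authors' deposited brain table and lay in the band. Both had a DESeq2 adjusted p of 1.00 in that authors' deposited table. In heart the circRNA of Locus 11 from 77088634 to 77124330 stood at 2.37 with an SE of 1.16 (DESeq2 adjusted p = 0.996), while the leader of that locus stood at 0.23 (95% interval -0.44 to 0.89), in the authors' deposited heart table. In spleen the circRNA of Locus 10 from 138967738 to 138969781 had -4.12 (SE 1.97), and in brain, where it led, 0.84 (SE 1.16), in the authors' deposited tables.

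**Figure D5:**
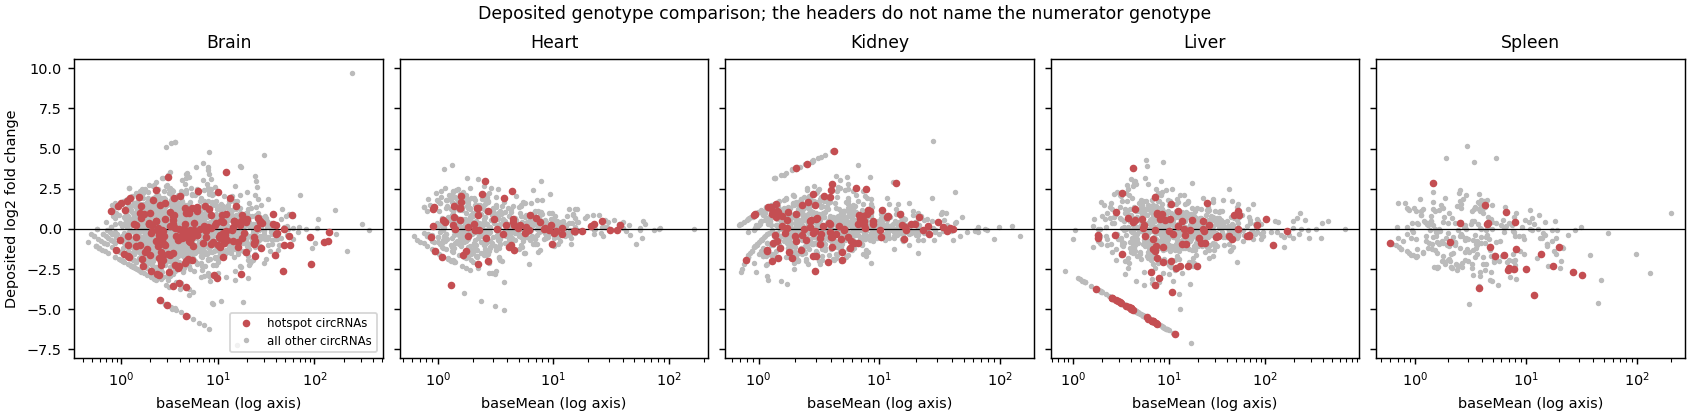
Deposited log2 fold change of the genotype comparison (vertical axis) against baseMean (horizontal axis, log scale) in each organ, with hotspot circRNAs in red and all other circRNAs in grey. In liver, 22 hotspot circRNAs lie on the straight descending band, where the fold change follows the mean.

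The abundant hotspot circRNAs were estimated most closely in heart. For 3 members, all dominant in heart, the whole 95% interval lay within a log2 fold change of 1 either way. They were the leader of Locus 11, the leader of Locus 20, with -0.09 (95% interval from -0.81 to 0.63), and the leader of Locus 6, with -0.06 (-0.87 to 0.74), in the authors' deposited heart table. These were 3 of 73 heart members, against 20 of all 664 circRNAs in the authors' deposited heart table. No member reached this in the other organs, and of all their circRNAs only 3 did, all in liver. The authors' deposited tables gave the dominant of Locus 1 log2 fold changes of -0.03 (SE 1.10) in brain, 0.06 (SE 0.99) in kidney, 0.21 (SE 0.44) in heart, -1.14 (SE 1.47) in spleen and -1.02 (SE 0.56) in liver.

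Differences of the genotype estimate between organs were examined for members listed with a p in 2 organs. Of 385 such differences 22 (5.71%) had an unadjusted p below 0.05, against 115 of 3341 (3.44%) over all circRNAs, and none passed after adjustment over all 3341. The same mice gave all organs, which this test leaves out.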

How the data were processed

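Members, loci and comparisons were chosen with earlier results of these data known. Per the submitters' processing notes, BWA 0.7.17-r1188, DESeq2 and GRCm39 were used, and the notes give no order. The model formula, the circRNA caller, the counting, the handling of both batches and the limit for low expression are not given in the sources. Per the file headers, the deposited tables hold for each circRNA an abundance signal (baseMean), a log2 fold change with its SE on the log2 scale, a test score, a p-value and an adjusted p-value, all computed by the authors. The 6 columns were used as deposited, and 1.96 SE on either side of the estimate give 95% intervals. In liver 30 members had a p-value but no adjusted p, and 7 members over all organs had no p-value.

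The tests planned on counts per library were replaced by the authors' own comparison, because the tables hold no values per library. P-values measure the spread between 3 mice per genotype, and are too small if repeat runs entered as separate samples.

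Loci were joined with pandas 2.3.3 and numpy 2.4.6 in Python, which was checked on simulated intervals. The loci described are the 12 with the most circRNAs, the 8 further ones with the highest summed baseMean, and those listed in 4 or more organs whose dominant differed. Other loci appear as examples chosen after their values were seen. The naming rule covered all members at an unadjusted p below 0.05, but without gene names at most 2 per direction and organ are given. The annotation at hand is of another build, GRCm38, so no host gene, exon or sequence is given, and host gene lists were not tested. The short stretches and neighbouring boundaries were examined after seeing the data.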

Additional observations from a re-analysis of the deposited data

How the results depend on the processing

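The number of members was 555 with 3 or more circRNAs per locus, 178 with 5 or more, and 124 without the brain table, against 294. It stayed within 1.5 times of that without any other organ, from 241 to 290, and was 250 when circRNAs were joined only by a shared boundary. With a baseMean of at least 5, members sharing a boundary numbered 121 (main 285), pairs of a locus and an organ in which the dominant held more than 50% numbered 58 (main 92), and loci with differing dominants 21 (main 32). With a lead of 1.5 times in every organ counted, 13 of 29 loci had differing dominants, against 32 of 45. The cause of these drops was not tested. At an unadjusted p below 0.05 there were 5 members in brain, 3 in kidney, 1 in heart, 12 in liver and 1 in spleen, and at an adjusted p below 0.1 there was 1 in liver, against 0 in the main count. With a baseMean of at least 5, the median log2 fold change was -0.0010 in heart, against 0.15, and -2.29 in spleen, against -1.40, and without the band it was -0.16 in liver, against -0.46. Of 46 alternative values, the other 30 stayed within 1.5 times of the main value. Among these were counts of called members at a baseMean of at least 5, which could not change from a main count of 0.

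Leaving out each mouse and the replicate block were not run. No paired analysis was possible because the tables hold no values per library. The depth is unknown, and abundances have no error between mice.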
